A study of Mus musculus with 9 samples.

Results

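The matrix metalloproteinase (Mmp), Adamts, Adamts-like (Adamtsl) and tissue inhibitor of metalloproteinases (Timp) genes were followed in mouse embryonic fibroblasts (MEFs). Members were all genes of the expression table whose names begin with Mmp, Adamts, Adamtsl or Timp and a number. This rule took 37 of 15184 genes and used no measured value. They were 16 of the 23 annotated protein-coding Mmp genes, 13 of 19 Adamts genes, 4 of 5 Adamtsl genes and all 4 Timp genes. The other 14 were not analysed here.

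PolyA+ RNA was sequenced in 9 libraries. The control group was 3 libraries of MEFs with an empty vector (Empty). The other groups were 3 libraries each of the lines SAM1 and SAM2, both labelled Hnrnpk_SAM. The lines were made from WT MEFs by lentiviral delivery of the synergistic activation mediator (SAM), a catalytically dead Cas9 with activator proteins that a guide RNA brings to a promoter, here that of Hnrnpk, which encodes an RNA-binding protein. The methods name separate guides but not which one each line carries, and the labels do not say whether the libraries of a line came from separate cultures, so p-values measure the spread between these libraries, which may be technical. Guide and line cannot be told apart. As control, the methods name a SAM plasmid with a nontargeting guide. They print the same sequence for that guide and for the Hnrnpk guide sgHnrnpk2.

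Mmps are zinc-dependent endopeptidases that cleave collagens, other matrix proteins and cell surface proteins. Most are secreted as inactive proenzymes, and a membrane-type subgroup acts at the cell surface. Adamts enzymes are secreted relatives with thrombospondin repeats that trim proteoglycans and procollagens, and Adamts-like proteins share those repeats but lack the protease. Timps bind the active sites, and Timp2 also helps Mmp14, the main membrane-type enzyme of fibroblasts, to activate pro-Mmp2.

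The reads on listed genes numbered 41759636 to 49026626 per library. Values are normalized counts, in which the authors divided the reads of a gene by the DESeq2 size factor of the library. Hnrnpk itself was 25058, 26099 and 26164 in Empty, 24102, 24045 and 23619 in SAM1 and 26608, 26859 and 26221 in SAM2. The libraries labelled SAM1 were therefore below Empty (log2 difference -0.11 ± 0.027 SE, limma adjusted p = 0.00252). Every SAM2 library was above every Empty library, but this small difference did not pass the test (0.044 ± 0.027, adjusted p = 0.159). By other assays, quantitative PCR and Western blot, the study reported higher Hnrnpk mRNA and protein in its Hnrnpk_SAM MEFs. All 10 fibroblast markers examined were in the table. They summed to 1022260 to 1115776 in Empty, 843472 to 903972 in SAM1 and 1146538 to 1185208 in SAM2. In means, Dcn (11815, 2713 and 2538), Pdgfra (9710, 6403 and 5534) and Thy1 (69271, 43524 and 56783) were lower in both lines. The mean of Pdgfrb was higher in both (6569, 12577 and 9513). Means of Col1a1 (221562, 175398 and 290176), Col1a2, Col3a1 and Fn1 were lower in SAM1 and higher in SAM2. Vim was the reverse (80507, 118053 and 76294), and Lum was at 48.5, 11.6 and 47.9. The summed level of 4 smooth muscle markers was 56778 to 60925 in Empty, 113026 to 122432 in SAM1 and 94983 to 96655 in SAM2, and that of 4 chondrocyte markers was 1994 to 2074, 12669 to 13027 and 4306 to 4460. Sox9 and Col2a1 carried the chondrocyte sum, whereas Comp was lower in both lines (means of 120, 49.2 and 78.7). The 4 endothelial markers summed to 301 to 357 in Empty, 4613 to 4988 in SAM1 and 638 to 689 in SAM2. Kdr made up the most of this sum (means of 211, 4693 and 536). Of the others, Cdh5 was lower in both lines (77.6, 64.7 and 51.2). Tek was lower in SAM1 and higher in SAM2 (35.6, 29.05 and 67.1), and Pecam1 the reverse (12.9, 29.5 and 11.99). The 3 neural markers in the table summed to 2176 to 2345, 8988 to 9160 and 8273 to 8460, most of it Nes. Epithelial (42.1 to 50.1, 110 to 113 and 42.7 to 52.4) and osteoblast sums (2526 to 2712, 4079 to 4493 and 3064 to 3216), each of 2 markers, were also above Empty in SAM1. Among 6 leukocyte markers Csf1r, Lyz2 and Cd68 were in the table, and the defining marker Ptprc was not analysed here. Those in the table summed to 607 to 728 in Empty, 944 to 977 in SAM1 and 695 to 739 in SAM2. Cd68 was higher in both lines (means of 375, 527 and 564). Csf1r (225, 252 and 111) and Lyz2 (78.2, 181 and 45.3) were higher in SAM1 and lower in SAM2. The part of these shifts in the results was not tested. In bulk RNA, fewer cells of a type and less RNA per cell cannot be told apart.

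The promoters of 4 neighbouring Mmp genes on chromosome 9 are shown first, because 3 of these genes were called in opposite directions in the lines and Mmp12, which was called in SAM2 alone, lies between them. The stretches are the 150 bases before the annotated start in RefSeq promoter windows (build GRCm38.p6, plus strand, 5′ to 3′). Capitals mark the AP-1 motif TGAGTCA or its reverse complement TGACTCA, the sequence bound by Fos and Jun proteins, and the TATA motif TATAAA on the plus strand. Mmp13 lies at chr9:7272364-7272513, Mmp12 at chr9:7347224-7347373, Mmp3 at chr9:7445672-7445821 and Mmp10 at chr9:7502192-7502341.
Mmp13: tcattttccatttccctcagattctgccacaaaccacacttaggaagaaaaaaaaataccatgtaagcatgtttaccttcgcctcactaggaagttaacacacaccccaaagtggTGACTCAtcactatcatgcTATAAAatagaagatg
Mmp12: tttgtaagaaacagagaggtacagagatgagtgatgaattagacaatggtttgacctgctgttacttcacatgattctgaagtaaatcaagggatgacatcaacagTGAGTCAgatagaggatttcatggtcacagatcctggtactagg
Mmp3: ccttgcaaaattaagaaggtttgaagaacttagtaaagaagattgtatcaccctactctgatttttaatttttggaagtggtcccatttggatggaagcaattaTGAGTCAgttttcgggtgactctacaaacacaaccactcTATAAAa
Mmp10: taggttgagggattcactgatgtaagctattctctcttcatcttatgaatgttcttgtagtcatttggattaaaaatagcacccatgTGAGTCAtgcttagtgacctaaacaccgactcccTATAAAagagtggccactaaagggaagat
The AP-1 motif began 35, 44, 46 and 63 bases before the start of Mmp13, Mmp12, Mmp3 and Mmp10. It was found in 5.20% of all 32851 promoter windows of 300 bases, and TATAAA in 8.32%. Of the 24 members with a window, these 4 held the AP-1 motif and the other 20 did not. The remaining members, with Mmp2, Mmp9 and Adamts5 among them, had no window and were not searched. The motif was also in windows of Mmp1a, Mmp1b and Mmp7 of the same cluster, whose expression was not analysed here, so that 7 of the 36 family genes with a window held it, all on chromosome 9. Windows of Mmp8, Mmp20 and Mmp27, also in this cluster, did not hold it. Mmp12 has more than 1 window in the reference, and the one printed holds the motif. A match describes letters only.

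Of the genes with these sequences, Mmp3, Mmp10 and Mmp13 were above Empty in SAM1 and below it in SAM2. Mmp12 did not pass the test in SAM1 (log2 difference 0.36, adjusted p = 0.551). Mmp14 and Adamtsl3 were also called in opposite directions, but lower in SAM1 and higher in SAM2, and their windows held neither marked motif. Whether the motifs bear on these levels was not tested. Mmp3, stromelysin-1, which cleaves proteoglycans, fibronectin and other proenzymes, was at 50.1, 67.2 and 67.8 in Empty, at 389, 425 and 403 in SAM1 and at 7.91, 15.8 and 16.7 in SAM2. The 3 groups did not overlap. Mmp3 rose in SAM1 (log2 difference 2.71 ± 0.22, adjusted p = 1.19e-07) and fell in SAM2 (-2.17 ± 0.22, adjusted p = 1.33e-06), and its mean was 30.1-fold higher in SAM1 than in SAM2 (log2 difference -4.88 for SAM2 against SAM1, adjusted p = 1.01e-09).

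Mmp10, stromelysin-2, was at 41.9, 35.7 and 42.1 in Empty, at 70.2, 65.2 and 70.3 in SAM1 and at 14.8, 15.8 and 13.9 in SAM2. Its groups were again in the order SAM1, Empty, SAM2 without overlap. The difference from Empty was 0.77 ± 0.15 in SAM1 (adjusted p = 0.000462) and -1.37 ± 0.15 in SAM2 (adjusted p = 2.93e-06). Mmp13, the main collagenase of mouse mesenchymal cells, was at 34.8, 34.7 and 35.05 in Empty, at 55.1, 55.3 and 70.3 in SAM1 and at 17.8, 23.2 and 26.0 in SAM2, again without overlap. It rose by 0.76 ± 0.18 in SAM1 (adjusted p = 0.00155) and fell by 0.64 ± 0.18 in SAM2 (adjusted p = 0.00576). Under quantile normalization the rises of Mmp10 (adjusted p = 0.0657) and Mmp13 (adjusted p = 0.124) in SAM1 no longer passed the threshold. Mmp12, macrophage elastase, was at 14.3, 12.6 and 3.505 in Empty, at 12.3, 7.90 and 15.6 in SAM1 and at 0.989, 4.64 and 2.78 in SAM2. At 1 to 16 reads per library, it was lower in SAM2 than in SAM1 (-1.85 ± 0.52, adjusted p = 0.00812). It was also lower in SAM2 than in Empty (-1.49 ± 0.52, adjusted p = 0.0214). The latter call was lost without SAM2 replicate 1 (adjusted p = 0.0931), Empty replicate 1 (adjusted p = 0.0897) or Empty replicate 2 (adjusted p = 0.0756). Mmp12 entered the table through Empty and SAM1 libraries, with no SAM2 library above 10. The filter thus favoured a low SAM2 level, and these tests are no support for it.

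**Figure D1:**
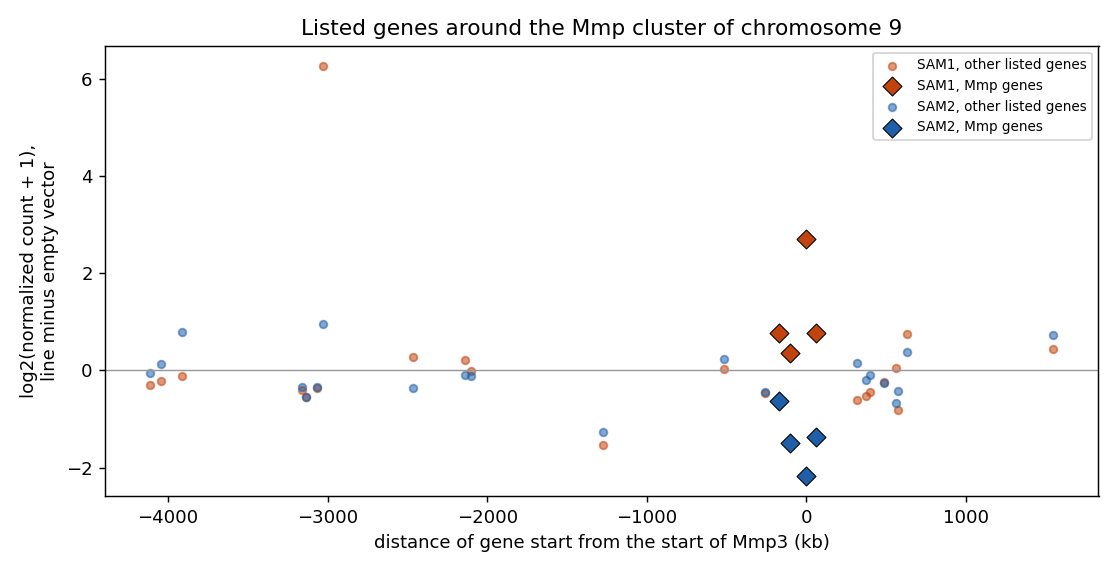
Log2 difference from empty vector of the 25 listed genes within 5 Mb of the start of Mmp3, plotted by distance of the gene start in kb, for SAM1 (orange) and SAM2 (blue), with Mmp genes as diamonds. The 4 Mmp diamonds lie above 0 in SAM1 and below 0 in SAM2, while Mmp12 in SAM1 did not pass the test and the nearest other genes on each side, Dcun1d5 and Tmem123, lay below 0 in SAM1.

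The nearest listed genes that are not Mmps did not share this order. Dcun1d5, which begins 261 kb before Mmp3, fell in SAM1 (-0.46, adjusted p = 5.02e-07) and in SAM2 (-0.45, adjusted p = 7.25e-07). Tmem123, 318 kb after it, fell in SAM1 (-0.62, adjusted p = 8.83e-10) and rose in SAM2 (0.15, adjusted p = 0.000809). Farther away, Casp4 rose in SAM1 (0.22, adjusted p = 0.000229) and fell in SAM2 (-0.10, adjusted p = 0.0426). The farther point high in SAM1 is Gria4, a glutamate receptor gene 3028 kb before Mmp3, whose mean was 0.740 in Empty, 125 in SAM1, the group through which it entered the table, and 2.58 in SAM2. The medians of all other genes of chromosome 9 were -0.16 in SAM1 and -0.12 in SAM2.

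Across the 37 genes, more were lower than higher in both lines. In SAM1, 11 rose and 24 fell against Empty, beside 37.3% and 36.9% of all genes. In SAM2, 9 rose and 23 fell, beside 35.2% and 35.3% of all genes. The median log2 difference of the members was -0.47 in SAM1 and -0.44 in SAM2, and that of all genes was 0.0093 and -0.0015. Both comparisons share the Empty libraries, so their values are given side by side. Differences beyond 1 that passed the test were found in 16 members in SAM1 (17.8% of all genes) and in 13 in SAM2 (13.3% of all genes). Libraries did not overlap with Empty for 34 members in SAM1 (74.4% of all genes) and for 33 in SAM2 (73.5% of all genes). Of the 37 members, 34 were above a value of 10 in every library, whereas Mmp3, Mmp12 and Adamts18 were not. Adamts18 entered the table through its Empty libraries alone, which fixed its direction. Mmp12 entered through Empty and SAM1 libraries, which favoured a low level in SAM2. The counts of members given here and below include both genes.

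By direction, 19 members fell in both lines (26.4% of all genes) and 6 rose in both (25.9% of all genes). Another 6 were called in opposite directions (5.83% of all genes), namely Mmp3, Mmp10, Mmp13, Mmp14, Mmp19 and Adamtsl3. The 5 called in one line (28.5% of all genes) were Mmp9, Mmp12, Mmp17, Mmp24 and Mmp25, and Timp4 was called in neither (13.4% of all genes). With both lines pooled as Hnrnpk_SAM, as the study grouped them, 5 members rose and 18 fell, beside 26.8% and 27.0% of all genes.

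**Figure D2:**
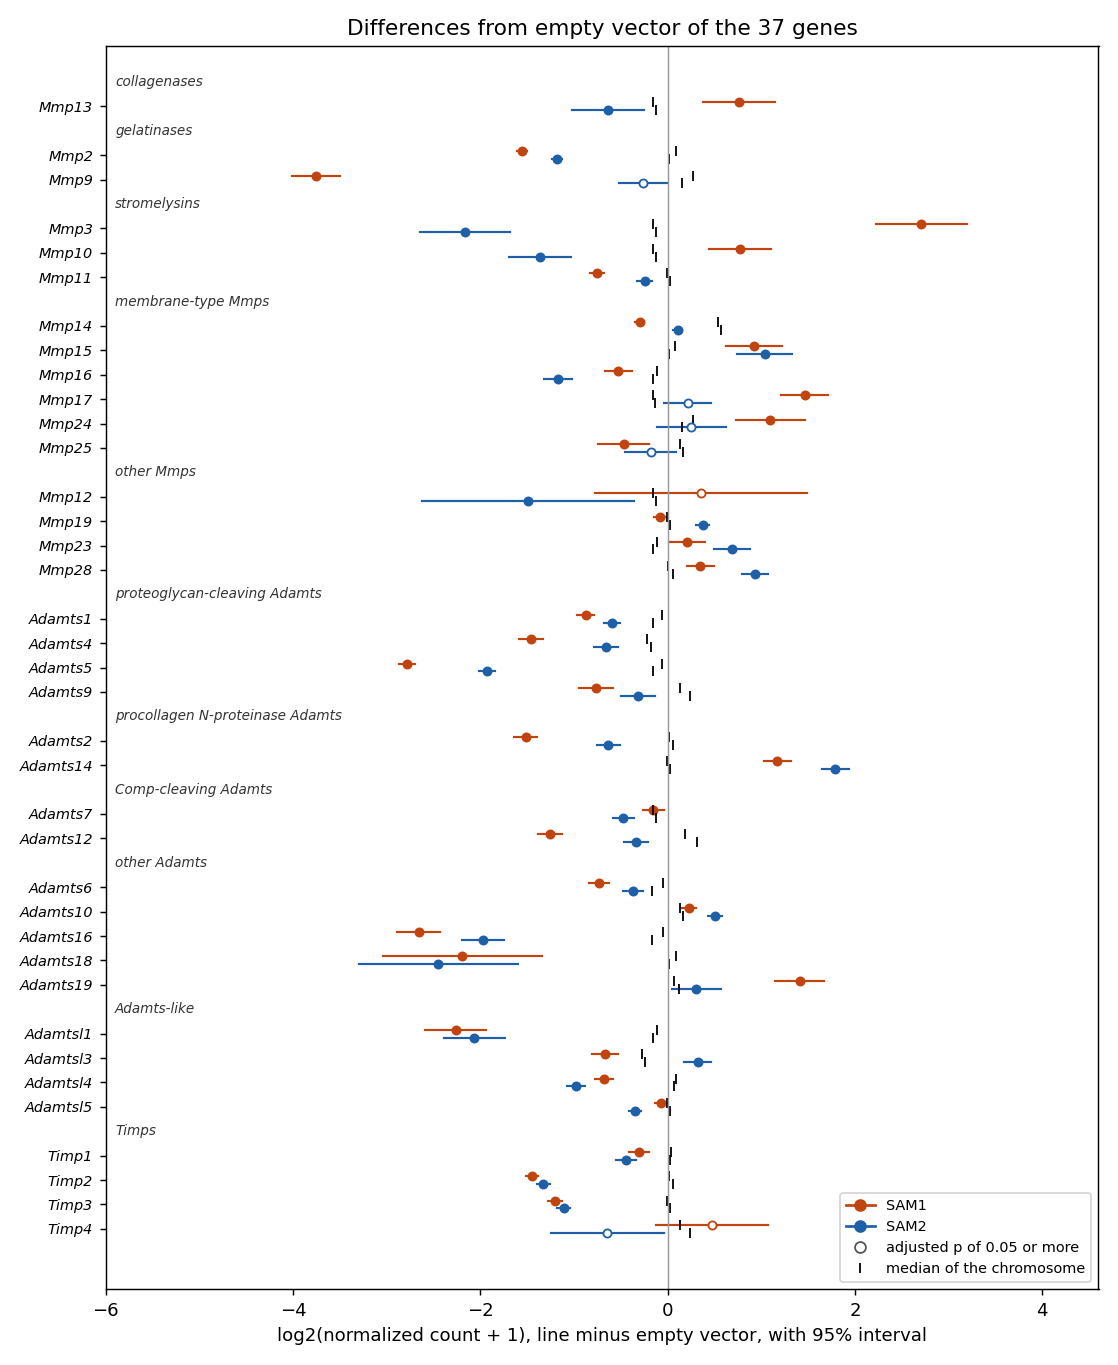
Log2 difference from empty vector, on the log2(normalized count + 1) scale, of the 37 genes by role in SAM1 (orange) and SAM2 (blue), with 95% intervals from limma, open circles where the adjusted p was 0.05 or more, and black ticks at the median of the gene's chromosome. Timp2, Timp3, Mmp2 and the proteoglycan-cleaving Adamts lie left of 0 in both lines, and Mmp3, Mmp10 and Mmp13 lie on opposite sides.

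Per kb of canonical transcript, the level in Empty was highest for Timp2 (55049 ± 1389 SD, n = 3), followed by Mmp2 (33839 ± 526), Mmp14 (16896 ± 156), Timp1 (10172 ± 660) and Timp3 (5094 ± 217). None of these neighbours in the order overlapped. In SAM1 and SAM2 the order was Timp2, Mmp14, Mmp2, Timp1 and Timp3, again without overlap, so that Mmp14 and Mmp2 had exchanged places. This order and the shares of genes given below depend on the canonical length, 2787 bases for Mmp14 and 3096 for Mmp2. With all exons together, 6166 and 3533 bases, Mmp2 would stay above Mmp14 in both lines. Adamts1 was the sixth in every group. At the low end of Empty, the libraries of Mmp24, Mmp15, Timp4, Adamts18 and Mmp12 overlapped with their neighbours, between 7.8 and 2.8 normalized counts per kb.

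Among the gelatinases, which cleave denatured collagen and basement membrane collagen, Mmp2 was at 104794, 106380 and 103126 in Empty, at 35974, 35065 and 35745 in SAM1 and at 45817, 45985 and 46542 in SAM2. Every library of both lines was below every Empty library. The mean was 2.94-fold lower in SAM1 (log2 difference -1.56 ± 0.025, adjusted p = 1.72e-14) and 2.27-fold lower in SAM2 (-1.18 ± 0.025, adjusted p = 3.80e-13). Mmp2 shares 860 exonic bases with the noncoding gene Gm45472 of the opposite strand. The other gelatinase, Mmp9, was at 240, 226 and 252 in Empty, at 14.2, 18.8 and 17.6 in SAM1 and at 191, 191 and 217 in SAM2. It was 14.2-fold lower in SAM1 (-3.76 ± 0.12, adjusted p = 7.99e-12), whereas SAM2, with every library below every Empty library, did not pass the test (-0.26 ± 0.12, adjusted p = 0.0643). The lines differed from each other by 3.496 ± 0.12 (adjusted p = 6.42e-11). The SAM2 call for Mmp9 was gained under 7 of 19 alternatives, such as edgeR on recovered reads (adjusted p = 0.0104).

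The third stromelysin, Mmp11, is released in active form after cleavage by furin. It ran from 3179 to 3467 in Empty, from 1938 to 1979 in SAM1 and from 2755 to 2834 in SAM2, and it fell in both lines (-0.76 and -0.25, adjusted p = 4.38e-10 and 3.68e-05). Its direction in SAM1 was thus opposite to that of Mmp3 and Mmp10.

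Of the 6 membrane-type Mmps, 3 rose and 3 fell in SAM1, and 2 rose and 1 fell in SAM2 (37.3% and 36.9% of all genes in SAM1, 35.2% and 35.3% in SAM2). Mmp14 was at 47504, 47130 and 46636 in Empty, at 38444, 38256 and 38017 in SAM1 and at 50748, 50751 and 50464 in SAM2. The groups did not overlap, but the shifts were small beside those of Mmp2 and Timp2. Mmp14 fell by 0.30 ± 0.024 in SAM1 (adjusted p = 7.65e-08) and rose by 0.11 ± 0.024 in SAM2 (adjusted p = 0.00134). The median of the 512 other genes of chromosome 14 was 0.53 in SAM1 and 0.57 in SAM2, and Mmp14 lay below it by 0.83 and by 0.46. The part of this chromosome-wide shift in the level of Mmp14 was not tested.

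Mmp17, a membrane enzyme with a lipid anchor, was at 62.4, 65.1 and 72.4 in Empty, at 190, 195 and 173 in SAM1 and at 78.1, 67.7 and 87.2 in SAM2. All SAM1 libraries were above the others, and SAM2 overlapped with Empty. The log2 difference was 1.47 ± 0.12 in SAM1 (adjusted p = 8.20e-08) and 0.21 ± 0.12 in SAM2 (adjusted p = 0.118). Mmp24 rose in SAM1 (1.09, adjusted p = 5.86e-05) and had 0.25 in SAM2 (adjusted p = 0.203), although 698 exonic bases of it overlap the antisense gene Mmp24os1 and the strand setting of the counting is not given in the sources used here. Mmp15 rose in both lines (0.92 and 1.04, adjusted p = 3.89e-05 and 1.45e-05), from 29.4 to 37.4 in Empty to 61.2 to 76.0 in both lines together. Mmp16 fell in both (-0.53 and -1.17, adjusted p = 1.14e-05 and 4.91e-09). The lipid-anchored Mmp25 fell in SAM1 (-0.47, adjusted p = 0.00453) and had -0.18 in SAM2 (adjusted p = 0.216).

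Among the remaining Mmps, Mmp28, epilysin, was at 241 to 266 in Empty and rose in SAM1 (0.35, adjusted p = 0.000298) and SAM2 (0.93, adjusted p = 3.22e-08). It shares 969 exonic bases with an antisense gene. Mmp19 ran from 2522 to 2632 in Empty and rose in SAM2 (0.37, adjusted p = 2.64e-07), and its SAM1 difference of -0.08 (adjusted p = 0.0379) did not pass under 9 alternatives. It shares 1084 exonic bases with Tmem198b on the opposite strand. Mmp23 rose in SAM2 (0.69, adjusted p = 1.26e-05), and its SAM1 difference of 0.21 (adjusted p = 0.0487) did not pass under 11 alternatives.

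**Figure D3:**
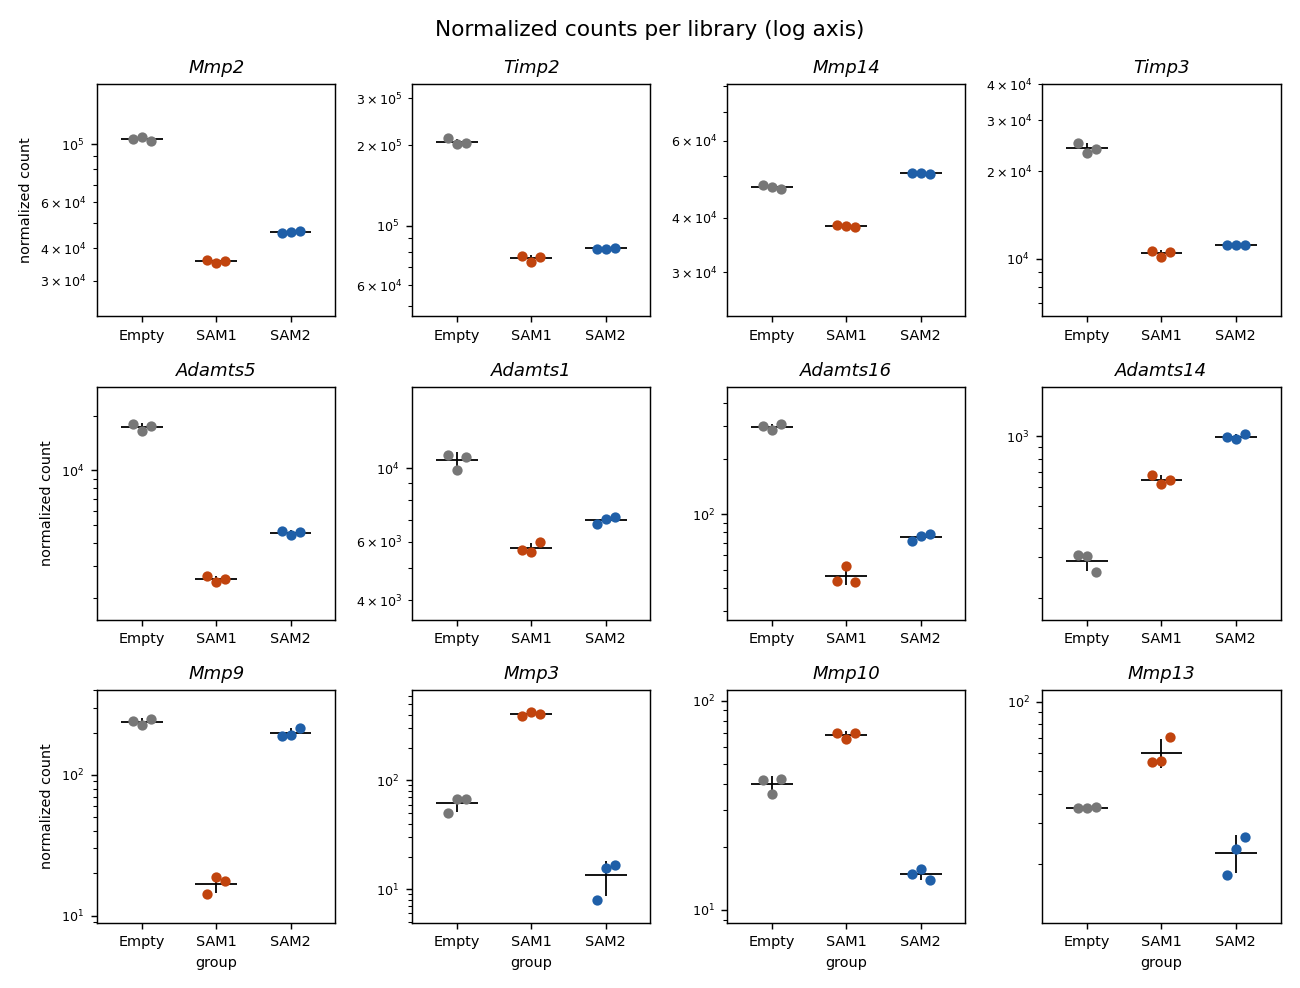
Normalized counts on a log axis of 12 genes in the 9 libraries, with the mean (horizontal line) and SD (vertical line) of the 3 libraries of each group. In Mmp2, Timp2, Timp3, Adamts5, Adamts1 and Adamts16 both lines lie below Empty, Adamts14 lies above Empty in both, Mmp9 lies far below Empty in SAM1 and slightly below it in SAM2, and Mmp3, Mmp10 and Mmp13 lie above Empty in SAM1 and below it in SAM2.

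The Adamts enzymes that cleave proteoglycans such as aggrecan and versican fell in both lines, with all 4 of those in the table called, beside 26.4% of all genes lower in both. Adamts5, the main aggrecan-cleaving enzyme of mouse cartilage, was at 18033, 16574 and 17599 in Empty, at 2613, 2423 and 2527 in SAM1 and at 4647, 4423 and 4601 in SAM2. Both lines were far below Empty, and SAM1 was below SAM2 without overlap. The mean was 6.90-fold lower in SAM1 (-2.79 ± 0.039, adjusted p = 5.14e-15) and 3.82-fold lower in SAM2 (-1.93 ± 0.039, adjusted p = 2.06e-13). Adamts1, its neighbour on chromosome 16, ran from 9878 to 10979 in Empty, from 5600 to 5980 in SAM1 and from 6806 to 7099 in SAM2 (log2 differences -0.88 and -0.59, adjusted p = 3.73e-10 and 2.50e-08). Adamts5 fell further, and the ratio of Adamts1 to Adamts5 per kb went from 1.30 ± 0.019 (SD, n = 3) in Empty to 4.90 ± 0.22 in SAM1 and 3.29 ± 0.14 in SAM2. Adamts4 fell by 1.46 in SAM1 and by 0.65 in SAM2 (adjusted p = 8.68e-11 and 3.69e-07), and Adamts9 by 0.77 and by 0.32 (adjusted p = 1.93e-06 and 0.00404). Exons of Adamts9 overlap antisense genes.

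The procollagen N-proteinases, which remove the amino-terminal propeptides of fibrillar collagens, moved in opposite directions. Adamts14 was at 305, 301 and 257 in Empty, at 680, 618 and 645 in SAM1 and at 991, 972 and 1023 in SAM2. The 3 groups did not overlap, and the difference was 1.17 ± 0.067 in SAM1 (adjusted p = 3.21e-09) and 1.79 ± 0.067 in SAM2 (adjusted p = 6.99e-11). Adamts2 was at 843, 769 and 769 in Empty, at 271, 281 and 278 in SAM1 and at 535, 494 and 505 in SAM2. It was below Empty in every library of the lines (-1.51 ± 0.057 and -0.63 ± 0.057, adjusted p = 4.19e-11 and 3.60e-07). Per kb, Adamts2 was above Adamts14 in Empty (108 and 55.3) and below it in SAM1 (37.7 and 124) and SAM2 (69.5 and 191).

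Adamts7 and Adamts12, which cleave cartilage oligomeric matrix protein, both fell. Adamts12 ran from 711 to 816 in Empty, from 306 to 315 in SAM1 and from 578 to 601 in SAM2 (-1.25 and -0.34, adjusted p = 4.66e-10 and 0.000204). Adamts7 differed by -0.15 in SAM1 (adjusted p = 0.0159) and by -0.47 in SAM2 (adjusted p = 2.61e-06). The SAM1 call was lost without SAM1 replicate 2 (adjusted p = 0.0727), and the SAM1 difference lay within 0.0037 of the median of its chromosome.

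Among the other Adamts genes, Adamts16, which is known from gonad and kidney, was at 300, 286 and 306 in Empty, at 43.7, 52.3 and 43.0 in SAM1 and at 71.2, 76.0 and 77.9 in SAM2. It fell in both lines (-2.66 ± 0.10 and -1.97 ± 0.10, adjusted p = 6.65e-11 and 1.98e-09) without overlap. Adamts18 was at 24.6, 21.0 and 24.5 in Empty, at 7.59, 4.94 and 1.95 in SAM1 and at 3.96, 3.71 and 2.78 in SAM2. With 2 to 8 reads per library in the lines, it was lower in SAM1 (-2.19 ± 0.39) and SAM2 (-2.45 ± 0.39, adjusted p = 0.000199 and 8.41e-05). This direction was fixed by the filter, which Adamts18 passed through its Empty libraries alone, so these p-values are no support for a fall. The lines did not differ detectably at this depth. Adamts19 was at 65.5, 60.9 and 52.6 in Empty, at 165, 142 and 173 in SAM1 and at 78.1, 68.6 and 74.2 in SAM2. It rose in SAM1 (1.41 ± 0.12, adjusted p = 1.76e-07), and the SAM2 difference of 0.30 (adjusted p = 0.0379) did not pass under 9 alternatives. Adamts6 fell in both lines (-0.73 and -0.37, adjusted p = 1.63e-08 and 1.91e-05), and Adamts10, which binds fibrillin, rose in both (0.23 and 0.50, adjusted p = 6.38e-05 and 3.17e-08).

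Of the Adamts-like genes, whose products lack a protease domain and in part associate with fibrillin microfibrils, Adamtsl1 was at 264, 262 and 264 in Empty, at 47.5, 48.4 and 68.4 in SAM1 and at 52.4, 64.0 and 71.4 in SAM2. The lines overlapped with each other and were both below Empty (-2.27 ± 0.15 and -2.07 ± 0.15, adjusted p = 1.27e-08 and 4.22e-08). Adamtsl4 fell in both (-0.68 and -0.98, adjusted p = 9.10e-09 and 3.34e-10). Adamtsl3 ran from 1471 to 1787 in Empty, and it fell in SAM1 (-0.67, adjusted p = 6.68e-07) and rose in SAM2 (0.32, adjusted p = 0.000661). Adamtsl5 fell in SAM2 (-0.35, adjusted p = 3.02e-07), and its SAM1 difference of -0.07 (adjusted p = 0.0433) did not pass under 11 alternatives.

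The inhibitors fell together with Mmp2, except for the scarce Timp4. Timp2 was at 212226, 202390 and 204350 in Empty, at 77045, 73236 and 76599 in SAM1 and at 82109, 81945 and 82741 in SAM2. All libraries of the lines were below Empty, 2.73-fold in SAM1 (-1.45 ± 0.030, adjusted p = 1.49e-13) and 2.51-fold in SAM2 (-1.33 ± 0.030, adjusted p = 5.96e-13). Timp2 shares 332 exonic bases with Cep295nl on the same strand. Timp3, the Timp that stays bound to the matrix and inhibits several Adamts enzymes, was at 25117, 23072 and 23985 in Empty, at 10649, 10095 and 10554 in SAM1 and at 11174, 11140 and 11094 in SAM2. It fell by 1.205 ± 0.033 in SAM1 and by 1.11 ± 0.033 in SAM2 (adjusted p = 2.20e-12 and 7.88e-12). The gene lies within Syn3 and shares 1734 exonic bases with it on the opposite strand, as Timp4 does 1142 with Syn2.

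Timp1, an inducible secreted inhibitor, was at 8992, 10207 and 9394 in Empty, at 7515, 8229 and 7343 in SAM1 and at 7099, 7078 and 6825 in SAM2. Its fall was smaller than those of Timp2 and Timp3, at -0.31 ± 0.049 in SAM1 (adjusted p = 7.09e-05) and -0.44 ± 0.049 in SAM2 (adjusted p = 2.69e-06). Timp4 was at 16.4, 35.7 and 35.05 in Empty, at 43.7, 31.6 and 41.0 in SAM1 and at 15.8, 15.8 and 20.4 in SAM2. Empty overlapped with both lines, and neither difference passed the test (0.47 ± 0.28 and -0.64 ± 0.28, adjusted p = 0.140 and 0.0528). Timp4 was lower in SAM2 than in SAM1 (-1.11 ± 0.28, adjusted p = 0.0036), and leaving out Empty replicate 1 made the SAM2 difference pass (-0.998, adjusted p = 0.00121).

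Summed over all members per kb, Mmp levels were 53416 ± 673 (SD, n = 3) in Empty, 27453 ± 191 in SAM1 and 35777 ± 88 in SAM2, and Timp levels were 70319 ± 1061, 30607 ± 203 and 31782 ± 70. These sums are carried by few genes, since Mmp2 made up 63.3% of the Mmp level in Empty, 41.9% in SAM1 and 41.6% in SAM2, and Mmp14 31.6%, 49.98% and 50.8%. Adamts levels summed to 5910 ± 305, 2790 ± 81 and 3695 ± 44. The ratio of Timp2 to Mmp2 per kb was 1.63 ± 0.051 in Empty, 1.75 ± 0.026 in SAM1 and 1.47 ± 0.0061 in SAM2. In contrast, the ratio of Mmp14 to Timp2 rose from 0.307 ± 0.0061 in Empty to 0.680 ± 0.019 in SAM1 and 0.828 ± 0.0069 in SAM2, and that of Mmp14 to Mmp2 from 0.499 ± 0.0063 to 1.19 ± 0.016 and 1.22 ± 0.014. For both ratios with Mmp14, every library of the lines was above every Empty library. These are ratios of mRNA levels and carry no measure of protein or activity.

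**Figure D4:**
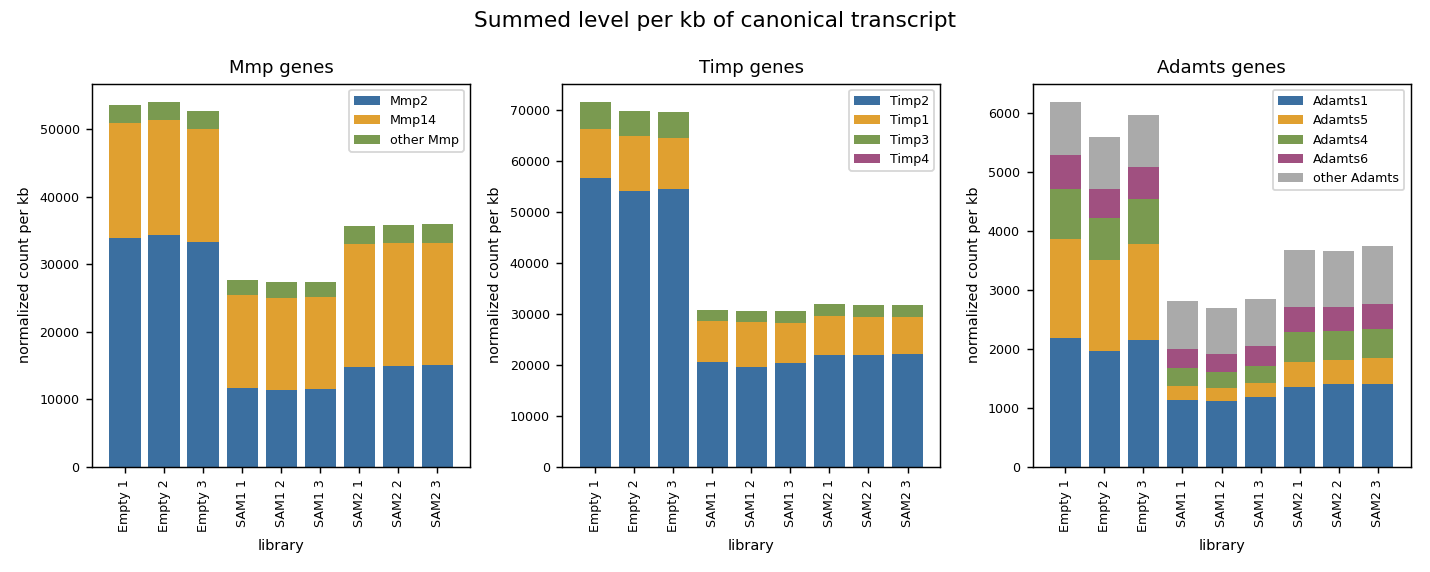
Stacked levels per kb of canonical transcript in each of the 9 libraries for the Mmp, Timp and Adamts genes of the table, on separate linear axes from 0. Mmp2, Timp2 and Adamts5 take up less of the bars of SAM1 and SAM2 than of Empty, and Mmp14 takes up more of the Mmp bars.

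The lines also differed from each other. In SAM2 against SAM1, 33 members passed the test (60.3% of all genes), of which 20 were higher and 13 lower in SAM2, beside 31.1% and 29.2% of all genes. In 8 the difference was beyond 1 (9.54% of all genes), and libraries of the lines did not overlap for 34 (68.2% of all genes). The 4 that did not pass were Mmp15, Mmp25, Adamts18 and Adamtsl1. All 4 proteoglycan-cleaving Adamts and both procollagen N-proteinases were higher in SAM2 than in SAM1.

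Genes that act on these enzymes or are cut by them were taken from lists. Of 27 activators, inhibitors and receptors in the table (34 listed), 12 rose and 11 fell in SAM1, and 7 rose and 12 fell in SAM2. In either direction these were 85.2% and 70.4% of the list, beside 74.3% and 70.5% of all genes, and so near the background. Reck, a membrane-anchored inhibitor of several Mmps, fell in both lines, from 454 to 461 in Empty to 229 to 263 in SAM1 and 322 to 337 in SAM2 (log2 differences -0.87 and -0.48). In the plasmin system, which activates several pro-Mmps, Serpine2, which inhibits several serine proteases, rose (4.06 and 3.05) from a mean of 111 in Empty. The urokinase gene Plau had -0.09 (adjusted p = 0.0328) and -0.06 (adjusted p = 0.175), its receptor Plaur fell (-0.41 and -0.38), and tissue plasminogen activator Plat rose (0.48 and 0.69). Serpinb2, an inhibitor of plasminogen activators, followed the order of Mmp3, with a rise in SAM1 (2.04, from 39.6 to 166) and a fall in SAM2 (-0.39, to 30.01). Furin, which activates membrane-type Mmps and Adamts proenzymes, had 0.03 in SAM1 (adjusted p = 0.463) and fell in SAM2 (-0.21), and the related convertase Pcsk6 rose in both (0.58 and 1.49). Itgb3, an integrin subunit, rose in both (2.29 and 1.72). Bsg, which induces Mmps in neighbouring cells, fell by 0.15 in both, and Lrp1, the receptor that clears Mmps and Timps, did not pass the test (0.06 and -0.13, adjusted p = 0.485 and 0.161).

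Of 22 related metalloproteinases and their enhancers in the table (24 listed), 12 rose and 9 fell in SAM1 (37.3% and 36.9% of all genes), and 11 rose and 9 fell in SAM2 (35.2% and 35.3% of all genes). Bmp1, the procollagen C-proteinase, rose in both lines (1.499 and 1.523) from a mean of 5408, and its enhancer Pcolce2 rose more (2.98 and 2.39). Bmp1 lies on chromosome 14, with the medians given above for Mmp14. Adam19 (2.14 and 2.40), Adam22 (4.15 and 2.55), Adam33 (3.81 and 1.90) and the meprin gene Mep1a (2.83 and 1.53) rose from means below 100 in Empty. Adam22 and Adam33 exceeded 10 only in the lines and so entered the table through the groups where they were high. Adam17, the main shedding enzyme of the cell surface, fell in both (-0.26 and -0.14).

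Of 30 matrix substrates in the table (33 listed), 11 rose and 17 fell in SAM1 (37.3% and 36.9% of all genes), and 13 rose and 13 fell in SAM2 (35.2% and 35.3% of all genes). In both lines 10 rose and 12 fell, beside 25.9% and 26.4% of all genes, so the list had no common direction. Among the substrates of the proteoglycan-cleaving Adamts, versican (Vcan) rose from a mean of 4336 in Empty to 18333 in SAM1 and 7743 in SAM2 (2.08 and 0.84). Aggrecan (Acan) rose from 11.3 to 88.3 and 26.7 (2.94 and 1.21). At 6.14, 13.7 and 14.0 in Empty, it passed the filter only with libraries of the lines, which favoured a rise. Neurocan (Ncan), a further proteoglycan of this group, had means of 13.4, 2.26 and 0.618 and entered the table through its Empty libraries alone, so that a lower level in the lines was fixed by the filter. Elastin (Eln) was scarce, with means of 2.11 in Empty, 5.18 in SAM1 and 16.3 in SAM2, and it entered the table through its SAM2 libraries alone. Fbln1, a fibulin that binds versican and Adamts1, rose (2.30 and 2.06), as did the crosslinking enzyme Loxl2 (2.62 and 4.12). Matn4 rose (2.42 and 3.04) from 8.18, 6.30 and 11.7 in Empty, and it too passed the filter only with libraries of the lines. Among other proteoglycans of the list, Dcn (-2.12 and -2.22) and Bgn (-0.75 and -0.55) fell in both lines. Hspg2 (-1.02 and -0.29) and Sdc4 (-0.59 and -0.36) did so too, whereas Sdc1 rose in SAM1 (0.25) and fell in SAM2 (-0.16). Lum (-1.98) and Fmod (-1.97) fell in SAM1 and did not pass the test in SAM2. Fibronectin (Fn1) had -0.23 in SAM1 (adjusted p = 0.0352) and 0.21 in SAM2 (adjusted p = 0.0555). The chondrocyte markers given above include Acan, and the part of the marker shift in these values was not tested.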

How the data were processed

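PolyA+ RNA of 9 libraries was sequenced in pairs of 43 bases on a NextSeq500 with a strand-directional kit. Per the submitters' processing notes and the methods, the authors checked reads with FastQC (0.11.0), aligned them to GRCm39 with TopHat2 and Bowtie, counted them with HTSeq and divided by DESeq2 size factors. The deposited values are this normalized signal, restricted to genes above 10 in at least 30% of libraries. All 15184 listed genes met that filter.

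Groups came from the labels. The test was limma (3.58.1, R 4.3.3, trended empirical Bayes, two-sided) on log2(value + 1) across all genes in 1 fit of 3 groups, and p-values were adjusted over all genes by Benjamini-Hochberg (called below 0.05). In the pooled comparison, the 6 Hnrnpk_SAM libraries formed 1 group. Fold changes on this scale understate changes of low genes. Values of all libraries were whole multiples of 1 read (tolerance 0.01, 100% of values), and edgeR (4.0.16) and DESeq2 (1.42.0) were run on these reads as alternatives. Other alternatives were pseudocounts of 0.5 and 10, stricter filters, quantile and TMM scaling, a replicate block, the groups compared alone, each library left out, and subtraction of the chromosome median. Of these steps, only the limma fit of SAM1 against Empty was tested on simulated counts.

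Levels per kb used canonical transcripts of GENCODE vM39, and promoters came from RefSeq (GRCm38.p6). Positions and gene lengths were matched by name, with 14791 names found once, 68 more than once and 325 not found. Members and lists were chosen with earlier results of these data known. Any member could be named. Values in every library are given for the Timps, Mmp2, Mmp3, Mmp9, Mmp13, Mmp14 and the 8 members with the largest called difference in each comparison of a line whose groups did not overlap. Listed genes were named from a fixed set, with up to 5 more per list by size of difference. Neighbours of the chromosome 9 cluster and the proteoglycans Dcn, Bgn, Hspg2, Sdc4, Sdc1, Lum and Fmod were named after their values were seen. A gene of the fixed set is not reported here.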

Additional observations from a re-analysis of the deposited data

Results flagged for a closer look

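The difference between the lines was itself tested, and 33 members passed (limma adjusted p below 0.05, SAM2 against SAM1). On the log2 scale SAM2 was lowest against SAM1 for Mmp3 (-4.88), Mmp10 (-2.14), Mmp12 (-1.85) and Mmp13 (-1.40) of the chromosome 9 cluster. For Mmp12 the filter favoured this direction. Among membrane-type enzymes the difference was -1.25 for Mmp17, -0.84 for Mmp24, -0.65 for Mmp16 and 0.41 for Mmp14. Mmp9 was higher in SAM2 by 3.496 and Mmp2 by 0.37. Other Mmps were also higher in SAM2, with 0.58 for Mmp28, 0.51 for Mmp11, 0.48 for Mmp23 and 0.45 for Mmp19.

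The proteoglycan-cleaving enzymes were higher in SAM2 by 0.85 for Adamts5, 0.80 for Adamts4, 0.45 for Adamts9 and 0.28 for Adamts1. The difference was 0.88 for Adamts2 and 0.62 for Adamts14. It was 0.92 for Adamts12, whose chromosome median differed by 0.14 between the lines, and -0.32 for Adamts7. Adamts16 (0.69), Adamts6 (0.37) and Adamts10 (0.28) were higher in SAM2, and Adamts19 (-1.11) was lower. Of the Adamts-like genes, Adamtsl3 differed by 0.99, Adamtsl4 by -0.30 and Adamtsl5 by -0.27. Among the inhibitors Timp4 differed by -1.11, Timp1 by -0.13, Timp2 by 0.12 and Timp3 by 0.094.

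Groups of 3 libraries were not tested for single libraries that stand apart. The causes of these differences were not tested.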

How the results depend on the processing

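Counts of members called stayed within 1.5 times of those reported in the alternatives run, except that DESeq2 on recovered reads called 8 members higher in both lines pooled, in place of 5. Some single differences changed sign. Under quantile normalization, SAM1 against Empty became 0.013 for Adamtsl5, -0.40 for Mmp12 and -0.016 for Timp4, and SAM2 against SAM1 became 0.56 for Adamts18. With 1 library left out, Mmp12 in SAM1 ranged from -0.20 (without Empty replicate 3) to 0.68, and Adamts18 between the lines from -0.68 to 0.089 (without SAM1 replicate 1). After subtraction of the chromosome median, Adamts7 in SAM1 was 0.0037 and Mmp14 in SAM2 -0.46. Timp1 and Timp3 between the lines lost their calls under 4 and 5 alternatives, each of which left out a library except quantile normalization for Timp3 (adjusted p = 0.167). The cause was not tested. Genes with few reads, Mmp12 and Adamts18, are limited by depth.

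Libraries that share a number were not paired by the labels, and the correlation of their deviations was 0.00237 to 0.117 (mean 0.0531, 9 pairs), with 8 of 9 libraries correlating best with their own number. With the replicate number as a block, 35 members were called in SAM1 (76.6% of all genes), 33 in SAM2 (73.1%), 33 between the lines (64.6%) and 20 in both lines pooled (48.4%), and Timp4 in SAM2 passed (adjusted p = 0.0351).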
